A study of Macaca mulatta with 252 samples.

Results

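WNT2, RSPO3, DKK2, WIF1 and SOSTDC1 encode secreted proteins that start, strengthen or restrain Wnt signalling, and their transcripts were described here across 57 laser-captured regions of the rhesus macaque brain. The 5 genes are 5 of 14133 genes that the array annotation names by a probe set with a single symbol. They were chosen because earlier results from these same arrays showed that their levels differ between layers, areas or hippocampal fields, so their levels are given as descriptions with no test, apart from the comparison of the sexes, which the choice did not use.

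Wnt proteins are secreted glycolipoproteins that bind Frizzled receptors and LRP co-receptors, and through these they stabilise beta-catenin or act on the cytoskeleton. R-spondins bind LGR receptors and keep Frizzled on the cell surface, while Dickkopf proteins block the LRP co-receptors and WIF1 binds the Wnt proteins themselves. In the mature brain the pathway is known for roles in synapse maintenance and in the production of new granule neurons in the dentate gyrus.

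Tissue was cut by laser capture microdissection, in which a laser frees a chosen layer or field from a thin section, from 3 male animals (called A to C) and 3 female ones (D to F), adult Macaca mulatta, and each piece was hybridised to 1 Affymetrix rhesus array. The labels name no treatment, strain or year of age. The groups are regions, and each holds arrays of both sexes. The arrays fell into 57 region groups, 54 of 4 animals and 3 of 3 animals (primary auditory layers 4 and 5, primary motor layer 2). Layers 2, 3, 5 and 6 came from the anterior cingulate (ACG), orbitofrontal (OFC) and primary motor (M1) cortex, and layers 2 to 6 from the dorsolateral prefrontal (DLPFC), primary somatosensory (S1), primary auditory (A1), secondary visual (V2), middle temporal (MT) and temporal (TE) cortex. In the primary visual cortex (V1) layer 4 was split into 4A, 4B, 4Ca and 4Cb. The hippocampus gave the dentate gyrus (DG) and the fields CA1, CA2 and CA3, and the lateral geniculate nucleus (LGN), the thalamic relay to V1, gave koniocellular, magnocellular and parvocellular divisions. ACG came from animals A, B, D and E, OFC and DLPFC from B, C, D and E, and MT from A, C, E and F. The other groups came from A, C, D and E, or 3 of these. Group means of different areas are thus in part means of different animals.

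All values below are log2 intensities, on which a difference of 1 is a factor of 2, and errors are SDs over animals unless named otherwise. The deposited table holds no detection call, so a fold against a reading under the array median may be no more than a lower bound. Array medians lay between 4.72 and 5.00. Marker genes followed the dissections: PROX1, which marks dentate granule cells, read 9.94 to 10.29 in DG and 6.19 to 6.87 in the CA fields, and TCF7L2, abundant in thalamic relay neurons, read 12.45 to 12.92 in LGN and 8.36 to 11.46 in neocortex. In 4 of 197 cortical arrays the layer markers CUX2 (upper layers) and FEZF2 (deep layers) went against the label, by a rule chosen after the data were seen: A1 layer 3 of male A, S1 layer 4 of male C and of female D, and S1 layer 5 of female D. The A1 layer 3 array of male A held 7.28 for CUX2 and 9.38 for FEZF2, against 9.99 to 10.10 and 4.69 to 5.56 in the other 3 animals. RSPO3 read 7.67 on it, against 3.92 to 4.58 in the others, and SOSTDC1 7.13, against 3.56 to 4.40. Layer differences of the members pooled over areas are given with and without these arrays. They use only areas for which an animal has every layer compared. Male A lacks A1 layers 4 and 5, so its A1 layer 3 array entered neither version. Leaving out the arrays removed S1 of male C and female D from differences over layers 2 to 6. From deep minus upper differences (layers 5 and 6 minus 2 and 3) it removed S1 of female D alone. Group means include all 4 arrays, layer means those of S1, and deep minus upper differences of a single area the S1 layer 5 array. Without the 4 arrays the 13 differences of the members between areas or structures moved by at most 0.03. The labels do not say which of 3 amplification batches an array belongs to, but the spread of 6 control probe sets (cre) divided the regions into a narrow set (ACG, S1, A1, V1, TE and M1, SD 0.0708 to 0.111) and a wide set (MT, OFC, DLPFC, V2, hippocampus and LGN, SD 0.174 to 0.268). The cut was placed at the largest gap between the SDs. How the 2 sets relate to the 3 batches is not known. The cre mean of V1 was 14.15, against 13.81 to 13.93 in the rest of its set. That of V2 was 14.28, against 13.77 to 14.05 in the rest of its set. Differences between areas are also given within a set, which need not hold the batch constant.

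A member entered a comparison's fit across all genes where its mean over the arrays used exceeded the median of all probe sets. WIF1, RSPO3 and SOSTDC1 passed in most comparisons. WNT2 and DKK2 passed in the comparison of hippocampal fields alone, through the fields where they are high. Their group means outside CA2 and CA3 reached 5.89 (WNT2, ACG layer 2) and 5.83 (DKK2, A1 layer 5), and most lay near or below the array medians. In bulk tissue of this kind, fewer cells of a type and less RNA per cell cannot be told apart.

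**Figure D1:**
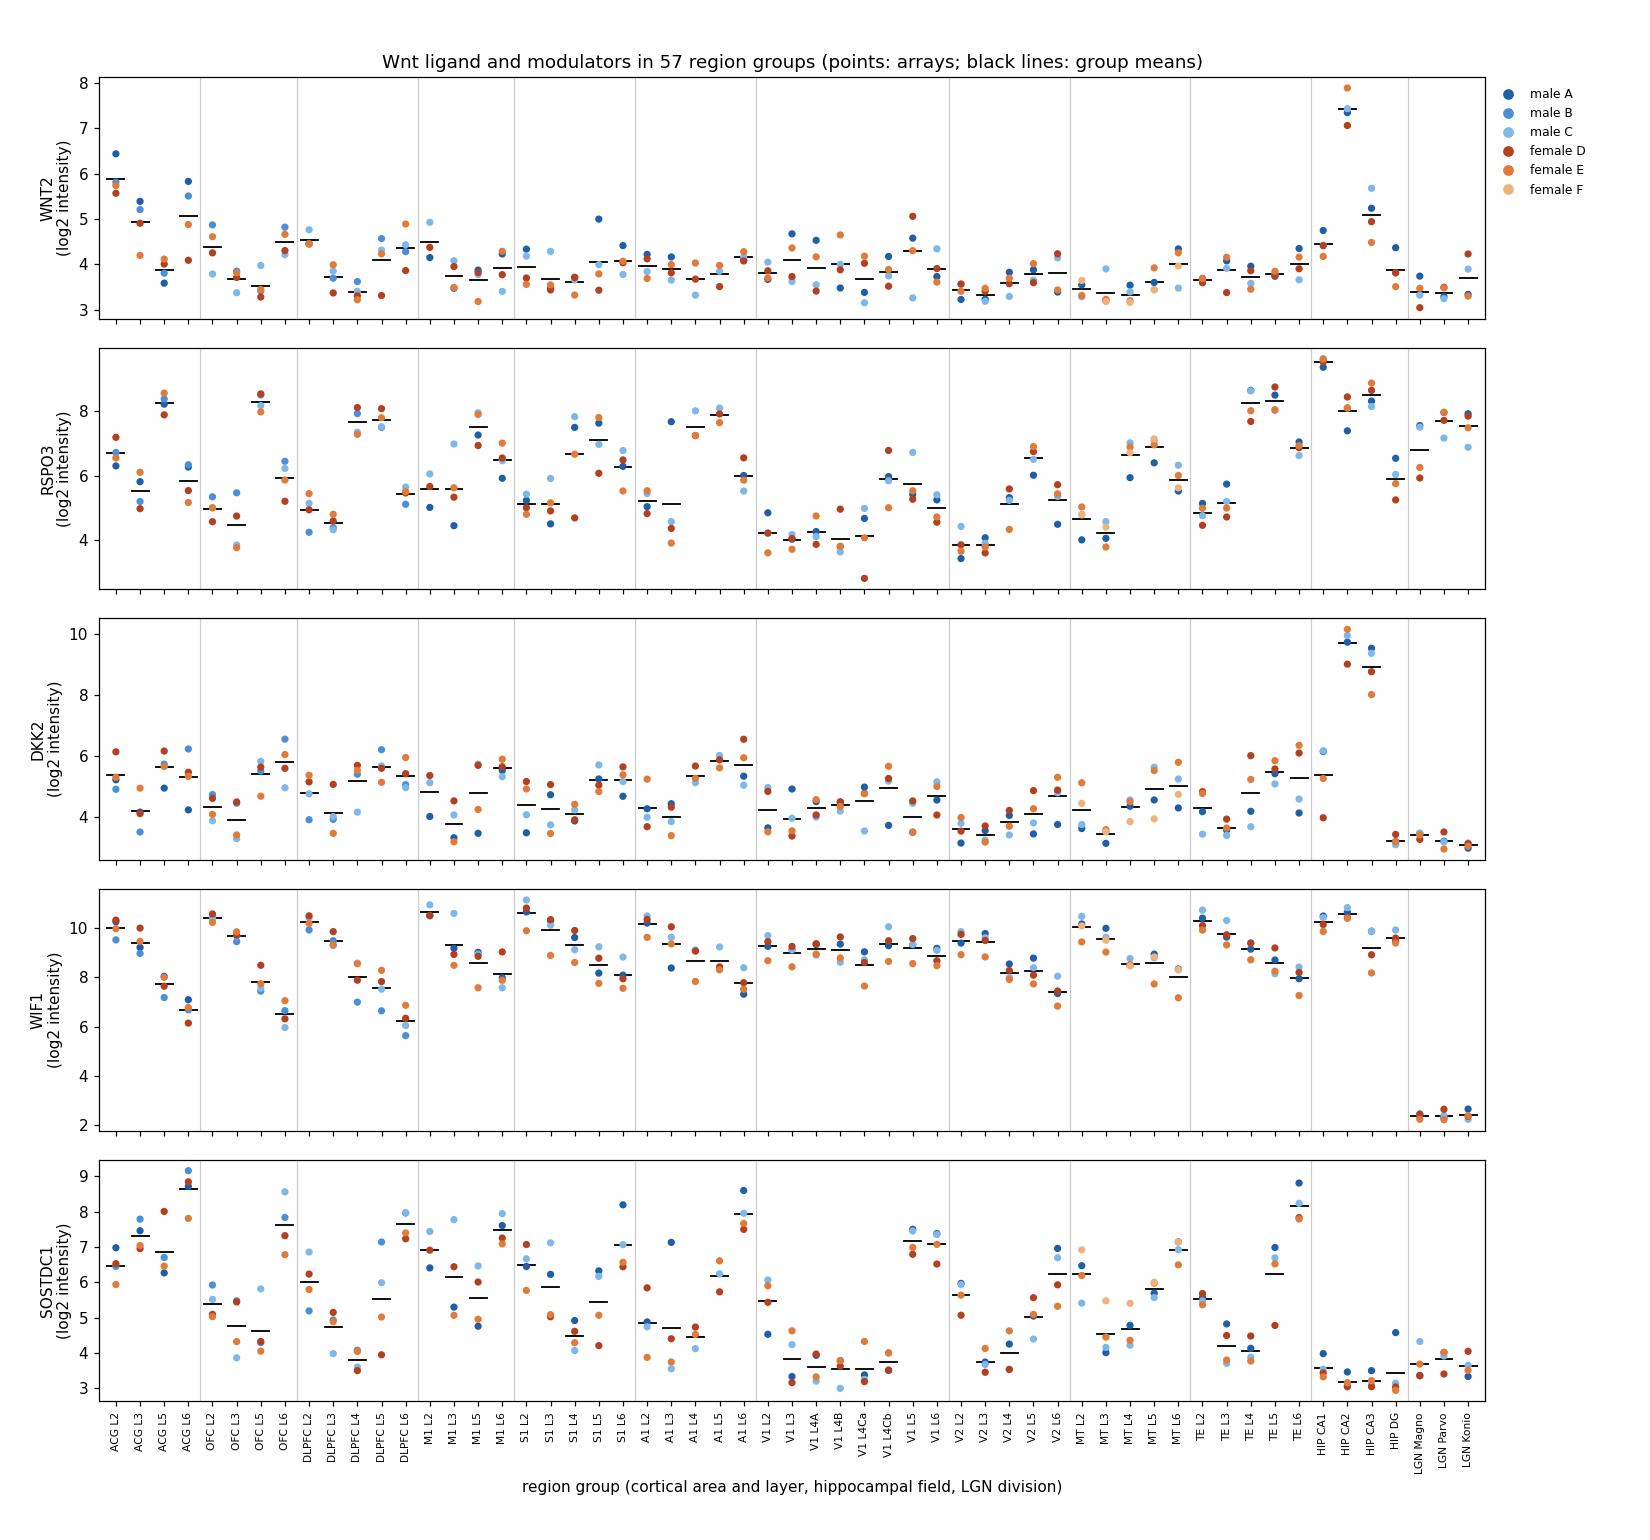
Log2 intensity of the 5 genes in 57 region groups; each point is 1 array and each black line the group mean, with a separate panel and axis for each gene. WNT2 and DKK2 stand out in CA2, RSPO3 in CA1, SOSTDC1 in layer 6, and WIF1 is at the bottom of the axis in the 3 LGN divisions.

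WNT2, a ligand of the beta-catenin pathway, was highest in CA2, a small field between CA3 and CA1. The 4 CA2 arrays read 7.35 (male A), 7.44 (male C), 7.07 (female D) and 7.89 (female E), a mean of 7.44 ± 0.34. The next group, ACG layer 2, read 6.44 (A), 5.82 (B), 5.57 (D) and 5.74 (E), so that every CA2 array lay above every other array of the 56 remaining groups. CA3 followed with 5.24 (A), 5.68 (C), 4.94 (D) and 4.49 (E), a mean of 5.09 ± 0.50. Within animals CA2 exceeded CA3 by 2.35 ± 0.73, CA1 by 2.99 ± 0.51 and DG by 3.56 ± 0.61, each in 4 of 4 animals.

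Outside the hippocampus WNT2 was highest in the anterior cingulate, in its layers 2, 3 and 6. ACG layer 2 averaged 5.89 ± 0.38, layer 3 4.93 ± 0.52, layer 5 3.88 ± 0.23 and layer 6 5.08 ± 0.77. The layer 6 arrays were spread widely, at 5.83 (A), 5.51 (B), 4.09 (D) and 4.88 (E), and the lowest of them fell within the range of layer 5 (3.59 to 4.12), while no array of layer 2 did. Layers 2 and 6 together exceeded layer 5 by 1.61 ± 0.76 in 4 of 4 animals. Over layers 2, 3, 5 and 6, ACG exceeded the mean of the other areas by 1.00 ± 0.34 in 3 of 3 animals with enough areas, and by 0.94 ± 0.25 among the areas of its control set. DLPFC layer 2 (4.53), OFC layer 6 (4.50) and M1 layer 2 (4.49) came next among cortical groups, and their ranges overlapped. The remaining cortical and LGN groups had means of 3.33 to 4.38, where neighbours in the order differed by less than their spread.

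The layer with the highest mean of WNT2 was 6 in 6 of 10 areas, 2 in 3 areas and 5 in V1. Layer accounted for 7.70% and area for 38.3% of its sum of squares over 158 cortical arrays, the reverse of the other members. Fibroblast markers of the meninges and vessels, which lie next to superficial cortex, were followed by a list of 5 genes, all measured. They averaged 5.38 (5.11 to 5.74 over arrays) in ACG layer 2, against 5.13 over neocortex. DCN of that list had its highest group mean in ACG layer 2 (8.34), and the other listed genes had theirs in other groups. The part of these markers in the WNT2 level was not tested. Astrocyte markers (3 of 5 listed genes measured) averaged 9.97 (9.85 to 10.02 over arrays) in ACG layer 2, 9.98 in layer 3, 9.28 in layer 5 and 9.70 in layer 6, against 9.39 (8.78 to 9.77) in layer 2 of the granular areas, and their part was not tested either. In CA2 the fibroblast list averaged 4.81, between CA3 (4.79) and the neocortical mean.

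RSPO3, an R-spondin that amplifies Wnt responses, was highest in CA1 and CA3 and, in cortex, in the middle layers. In the 6 areas with layers 2 to 6 other than V1 its mean over 4 animals was 4.75 ± 0.25 in layer 2, 4.55 ± 0.16 in layer 3, 6.90 ± 0.31 in layer 4, 7.38 ± 0.18 in layer 5 and 5.99 ± 0.17 in layer 6. No animal's value in layer 4 or 5 overlapped with layer 2 or 3. Layers 4 and 5 exceeded layers 2 and 3 by 2.49 ± 0.04 (5.61-fold) in 4 of 4 animals, and by 2.66 without the 4 arrays whose markers go against the label. Layer 5 exceeded layer 6 by 1.39 ± 0.17 (1.55 without these arrays) and layer 4 by 0.48 ± 0.40 (0.49 without them), the smallest animal difference from layer 4 being 0.02. The highest layer was 5 in 9 of 10 areas, and deep layers (5 and 6) exceeded upper layers (2 and 3) by 0.93 ± 0.42 in ACG to 2.59 ± 0.42 in TE.

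V1 was the exception, in level and in pattern. Its highest mean was in layer 4Cb, the target of parvocellular input from LGN, with 5.97 (A), 5.84 (C), 6.78 (D) and 5.01 (E). Layer 4Ca, immediately above, read 4.68 (A), 4.99 (C), 2.83 (D) and 4.08 (E), so that every 4Cb array exceeded every 4Ca array. The difference of 1.76 ± 1.48 had the same sign in 4 of 4 animals, but female D alone contributed 3.95 and its removal left 1.03. V1 layer 5 averaged 5.74 ± 0.66 and its difference from 4Cb, a mean of -0.16, ranged from -1.51 to 0.87 over the 4 animals. Over layers 2, 3, 5 and 6, RSPO3 was lower in V1 than in the other areas by a log2 difference of -1.08 ± 0.31, and in V2 by -0.94 ± 0.23, in 4 of 4 animals each. Within their own control sets the differences were -1.43 ± 0.23 for V1 and -0.67 ± 0.12 for V2. The 2 visual areas had the lowest area means, 4.74 and 4.87, and ACG (6.57) and TE (6.30) the highest.

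In the hippocampus the order of RSPO3 differed from that of WNT2. CA1 read 9.35 (A), 9.62 (C), 9.52 (D) and 9.60 (E), the highest group of the 57, and no array of another group reached it. CA3 averaged 8.49 ± 0.33, CA2 8.0 ± 0.44 and DG 5.90 ± 0.54, with CA2 and CA3 overlapping. CA1 exceeded CA3 by 1.04 ± 0.32 and DG by 3.63 ± 0.61 (12.3-fold) in 4 of 4 animals. Averaged per animal, hippocampus stood 2.21 ± 0.12 and LGN 1.58 ± 0.38 above neocortex. In LGN the parvocellular division averaged 7.70 ± 0.37, the koniocellular 7.53 ± 0.47 and the magnocellular 6.81 ± 0.84. The magnocellular arrays divided into 7.55 (A) and 7.50 (C) of the males and 5.93 (D) and 6.25 (E) of the females, and the difference from the parvocellular division, -0.89 ± 1.03, was within its spread.

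**Figure D2:**
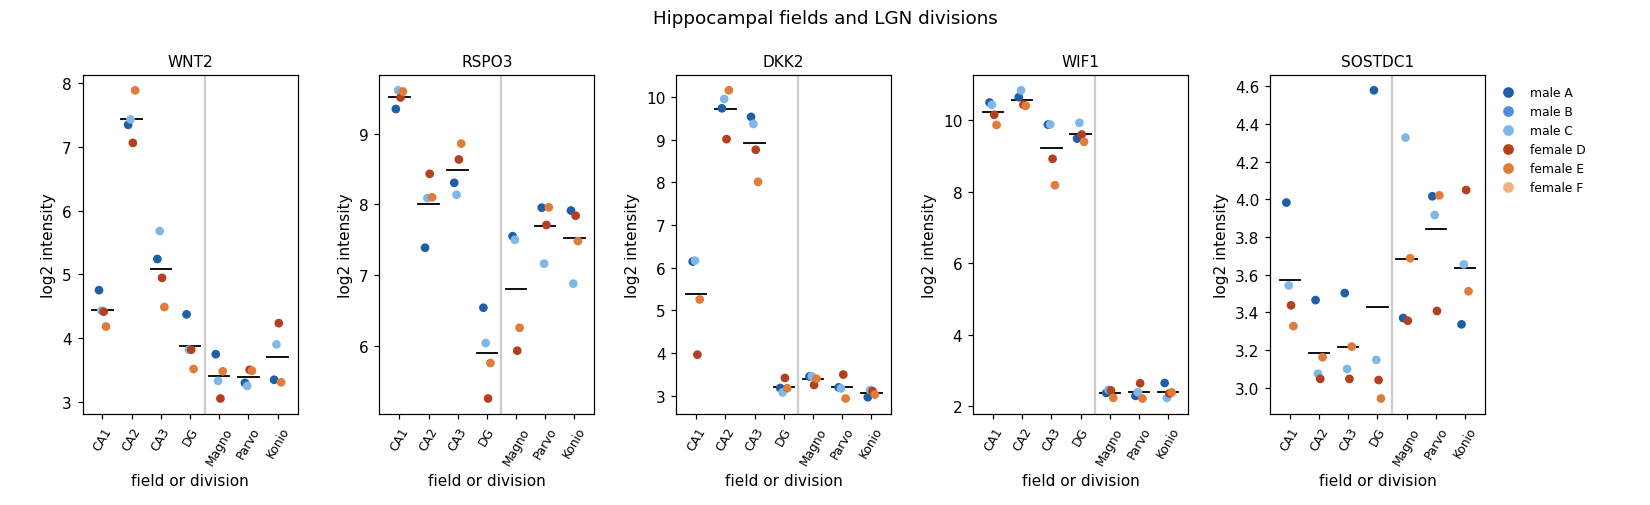
Log2 intensity of the 5 genes in the 4 hippocampal fields and the 3 LGN divisions; each point is 1 array of 1 of 4 animals and each black line the mean. WNT2 peaks in CA2, DKK2 in CA2 and CA3, RSPO3 in CA1, and WIF1 reads over 8 in every hippocampal array and under 3 in every LGN array.

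DKK2, a Dickkopf protein that blocks LRP co-receptors, was high in CA2 and CA3 and at much lower levels in the other groups. CA2 read 9.74 (A), 9.96 (C), 9.02 (D) and 10.16 (E), and CA3 read 9.54 (A), 9.37 (C), 8.77 (D) and 8.01 (E). The difference between them, 0.80 ± 0.92, lay within its spread although CA2 was higher in 4 of 4 animals. CA1 read 6.15 (A), 6.17 (C), 3.96 (D) and 5.26 (E), below every CA2 and CA3 array, and DG read 3.08 to 3.42. CA2 exceeded CA1 by 4.33 ± 0.75 (20.2-fold) and the DG reading by 6.50 ± 0.63, and CA3 exceeded CA1 by 3.54 ± 0.88, in 4 of 4 animals each. DKK2 read as low in DG as in LGN, and whether either exceeds background is not known. The third group of the 57, A1 layer 5, averaged 5.83 ± 0.21, well under the lowest CA3 array.

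A second DKK2 probe set covered a narrower range, with group means of 3.89 to 5.33 against 3.06 to 9.72 on the set used. It also ranked CA2 first (5.33) and CA3 second (4.80), and over the 57 group means its Pearson r with the set used was 0.51. Averaging both sets lowered the CA2 minus CA1 difference to 2.68. Choroid plexus, which lies along the hippocampus, was checked through FOLR1 and AQP1, the 2 of 4 listed markers with a probe set. Their mean was 7.52 in CA2, 7.62 in CA3, 7.51 in CA1, 6.98 in DG and 6.41 in neocortex, and its part in the DKK2 level was not tested. FOLR1 differed little, with group means of 4.96 to 5.63 over the 57 groups, against 4.89 to 10.00 for AQP1. MBP, the oligodendrocyte marker, was higher in the fields where DKK2 is high, at 11.42 in CA2 and 11.50 in CA3 against 9.40 in CA1 and 8.63 in DG. WNT2, unlike MBP, was higher in CA2 (7.44) than in CA3 (5.09). The part of MBP in the level of DKK2 or WNT2 was not tested.

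In cortex DKK2 was low with a deep-layer bias. The layer means were 4.23 ± 0.57, 3.80 ± 0.42, 4.54 ± 0.47, 5.14 ± 0.33 and 5.16 ± 0.74 from layer 2 to layer 6 of the 6 granular areas (those with a layer 4, V1 left out). Layer 5 exceeded layer 3 by 1.34 ± 0.45 in 4 of 4 animals (1.39 without the 4 arrays whose markers go against the label). Deep layers (5 and 6) exceeded upper layers (2 and 3) by 1.10 ± 0.42 over all areas in 5 of 5 animals (1.12 without the 4 arrays), from 1.76 ± 0.40 in A1 to 0.25 ± 0.40 in V1. The sign differed between animals in V1 and in ACG, where male A was at -0.25 and -0.10. The highest layer was 6 in 5 areas, 5 in 4 and 4Cb in V1. In the 3 LGN divisions the means were 3.06 to 3.39.

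WIF1, which binds and sequesters Wnt proteins, fell from layer 2 to layer 6 in the areas other than V1. In the granular areas it averaged 10.17 ± 0.36 in layer 2, 9.68 ± 0.38 in layer 3, 8.77 ± 0.27 in layer 4, 8.42 ± 0.28 in layer 5 and 7.67 ± 0.37 in layer 6. In single areas not every step was a fall: layer 5 was not below layer 4 in V2 (8.25 and 8.19) or MT (8.58 and 8.57). Layer 2 exceeded layer 6 in each animal, by 2.23 to 2.76, a mean of 2.49 ± 0.22 (5.63-fold). Without the 4 arrays whose markers go against the label the mean was 2.50. Layer accounted for 68.2% of its sum of squares over 158 cortical arrays, a description only, since the gene was chosen with its layer pattern known. The oligodendrocyte marker MBP, the only one of 5 listed with a probe set, ran the other way, from 10.11 in layer 2 to 12.81 in layer 6, and its part in the gradient was not tested.

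V1 did not show this order of layers. The 8 V1 layers averaged 9.28 ± 0.43 in layer 2, 8.99 ± 0.37 in layer 3, 9.14 ± 0.25 in 4A, 9.10 ± 0.48 in 4B, 8.51 ± 0.60 in 4Ca, 9.37 ± 0.58 in 4Cb, 9.20 ± 0.44 in layer 5 and 8.86 ± 0.34 in layer 6. Deep minus upper was -0.10 ± 0.13 in V1, from -0.23 to 0.06 over 4 animals. In the other areas it was -2.19 ± 0.45 (4.55-fold lower in deep layers) over 5 animals, and -2.18 without the 4 arrays. Within animals, V1 differed from the other areas by 1.90 ± 0.06 (1.90 without the 4 arrays), the 4 animals lying between 1.81 and 1.93. In V1 MBP averaged 10.42 in layer 2, 11.45 in layer 3, 12.63 in 4B, 12.29 in layer 5 and 12.02 in layer 6, and its part in the V1 pattern was not tested.

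Outside V1 the difference was widest in DLPFC, OFC and ACG. Deep minus upper was -2.98 ± 0.58 in DLPFC, -2.89 ± 0.28 in OFC and -2.53 ± 0.50 in ACG, and it lay between -1.98 and -1.49 in S1, TE, A1, V2, M1 and MT. These 3 areas differed from the remaining areas without V1 by -1.0 ± 0.48 in 4 of 4 animals, and by -1.03 without the 4 arrays. They belong to both control sets. Their layer 6 means were 6.22 in DLPFC, 6.50 in OFC and 6.68 in ACG against 7.42 to 8.12 in V2, TE, A1, MT, S1 and M1. Layer 2 means outside V1 lay between 9.48 (V2) and 10.66 (M1), and those of DLPFC (10.27), OFC (10.41) and ACG (10.03) lay within that range.

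**Figure D3:**
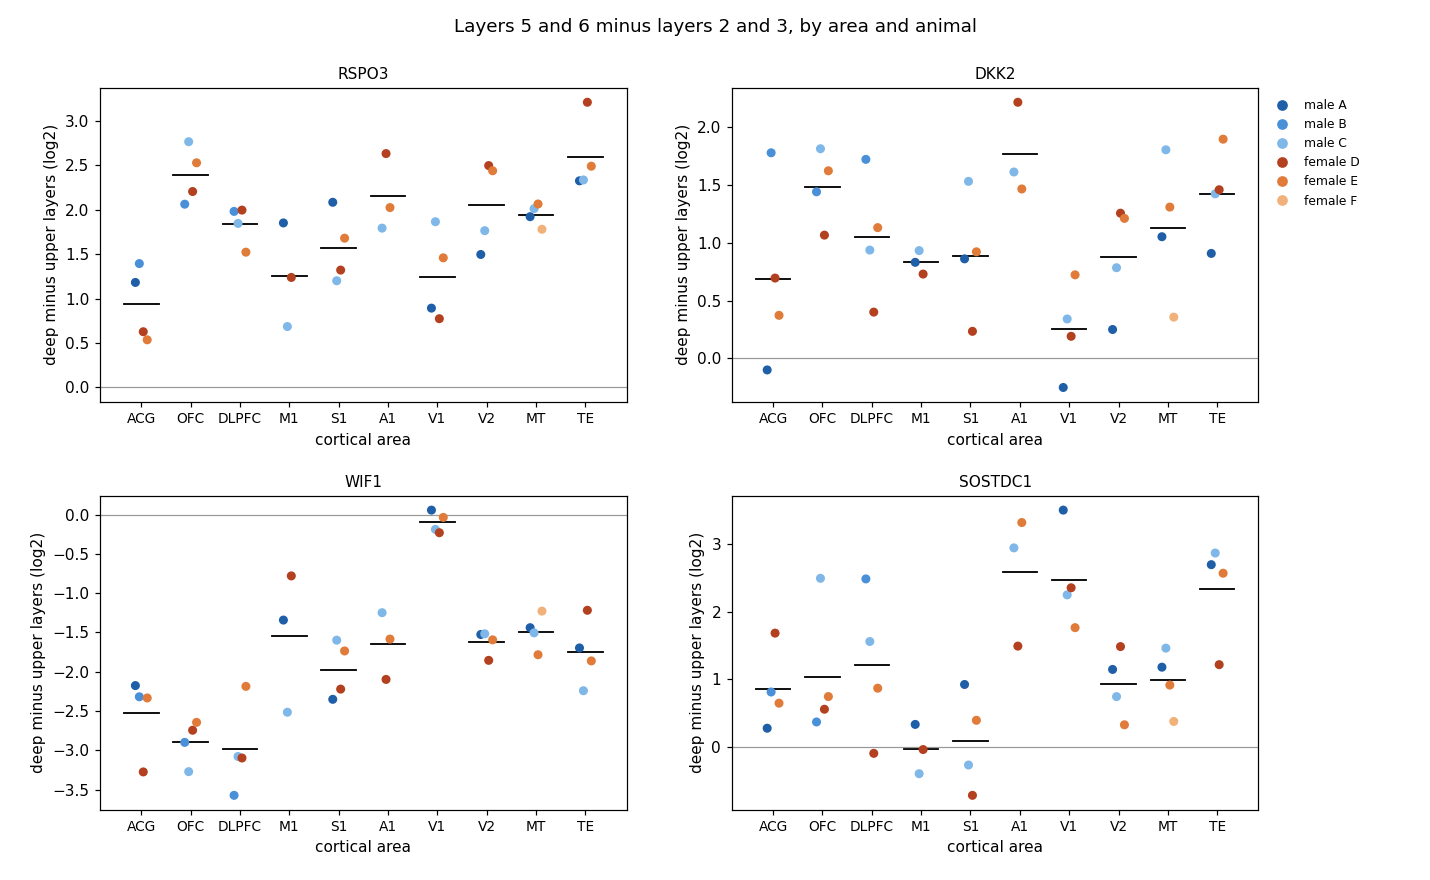
Deep layers (5 and 6) minus upper layers (2 and 3) of RSPO3, DKK2, WIF1 and SOSTDC1 in 10 cortical areas, in log2 units; each point is 1 animal, each short black line the mean over 3 or 4 animals, and the long line marks 0. WIF1 lies below 0 in every area except V1, where the 4 animals lie between -0.23 and 0.06.

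In LGN, WIF1 was at the bottom of the array's scale. Its 12 LGN arrays read 2.22 to 2.65, and the 3 division means (2.41 koniocellular, 2.38 magnocellular, 2.39 parvocellular) fell at the 0.0189 to 0.0265 percentile of all probe sets in their group. The lowest cortical group, DLPFC layer 6, averaged 6.22, and no LGN array overlapped with any cortical or hippocampal array. The LGN reading minus that of neocortex was -6.53 ± 0.24 in 4 of 4 animals. Whether the LGN readings exceed background is not known, so no fold is given. In hippocampus WIF1 was 0.99 ± 0.17 above neocortex, with CA2 (10.58 ± 0.20) and CA1 (10.24 ± 0.29) higher than DG (9.60 ± 0.23) and CA3 (9.22 ± 0.82). CA2 exceeded CA3 by 1.36 ± 0.65 in 4 of 4 animals.

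SOSTDC1, a secreted antagonist of both BMP ligands and the Wnt co-receptor LRP6, was highest in layer 6. From layer 2 to layer 6 of the granular areas it averaged 5.85 ± 0.29, 4.48 ± 0.16, 4.22 ± 0.26, 5.61 ± 0.52 and 7.28 ± 0.42. The layer 6 values of the 4 animals, 6.88 to 7.78, lay above every value of the other layers. Layer 6 exceeded layer 4 by 3.06 ± 0.44 (8.34-fold) and layer 5 by 1.67 ± 0.40, and layer 2 exceeded layer 3 by 1.37 ± 0.19, each in 4 of 4 animals. Without the 4 arrays whose markers go against the label these differences were 3.15, 1.71 and 1.43. Layer 6 was the highest layer in 9 of 10 areas. Layer 2 came second in OFC, DLPFC, M1, S1, V2 and MT, layer 5 in A1 and TE, and layer 3 in ACG, where layer 2 was lowest (6.48). MBP was also highest in layer 6 of the granular areas (12.81) and lowest in layer 2 (10.11), and its part in the layer 6 level was not tested.

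In V1 layer 5 matched layer 6. Layer 5 read 7.50 (A), 7.45 (C), 6.80 (D) and 6.99 (E), and layer 6 read 7.38 (A), 7.36 (C), 6.52 (D) and 7.08 (E). Layer 6 minus layer 5 was -0.10 ± 0.15, against 1.67 in the granular areas. Both stood clear of the sublayers of layer 4, whose means were 3.54 to 3.76, and layer 5 exceeded 4Cb by 3.43 ± 0.43 (10.8-fold). Layer 2 exceeded layer 3 by 1.64 ± 0.51 in V1, as in the granular areas.

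The highest group of the 57 was ACG layer 6, with 8.72 (A), 9.16 (B), 8.85 (D) and 7.81 (E). Over layers 2, 3, 5 and 6, ACG exceeded the other areas by 1.47 ± 0.36 in 3 of 3 animals, and by 1.28 ± 0.37 among the areas of its control set. The astrocyte list averaged 9.73 over the ACG arrays, against 9.23 over neocortex, and its part in the SOSTDC1 level was not tested. ACG averaged 7.32 ± 0.35 and V2, the lowest area, 5.17 ± 0.19. The deep minus upper difference ranged from 2.59 ± 0.97 in A1, 2.47 ± 0.74 in V1 and 2.34 ± 0.76 in TE to 0.08 ± 0.72 in S1 and -0.04 ± 0.37 in M1. In M1 layers 2 and 3 were as high as layers 5 and 6 on average. In S1 the animals differed, at 0.92 (A), -0.27 (C), -0.72 (D) and 0.39 (E). The S1 layer 5 array of female D is among those whose markers go against the label. Hippocampus, at 3.35 ± 0.36, was lower than neocortex, at 5.58 ± 0.19, and the difference within animals was -2.23 ± 0.19. LGN averaged 3.72 ± 0.18. All hippocampal and LGN readings lay below the array medians, and whether they exceed background is not known. CA2 and CA3 had the 2 lowest means (3.19 and 3.22). The DG mean of 3.43 rested on male A at 4.58, against 2.94 to 3.15 in the other animals, so this order is not a firm one.

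**Figure D4:**
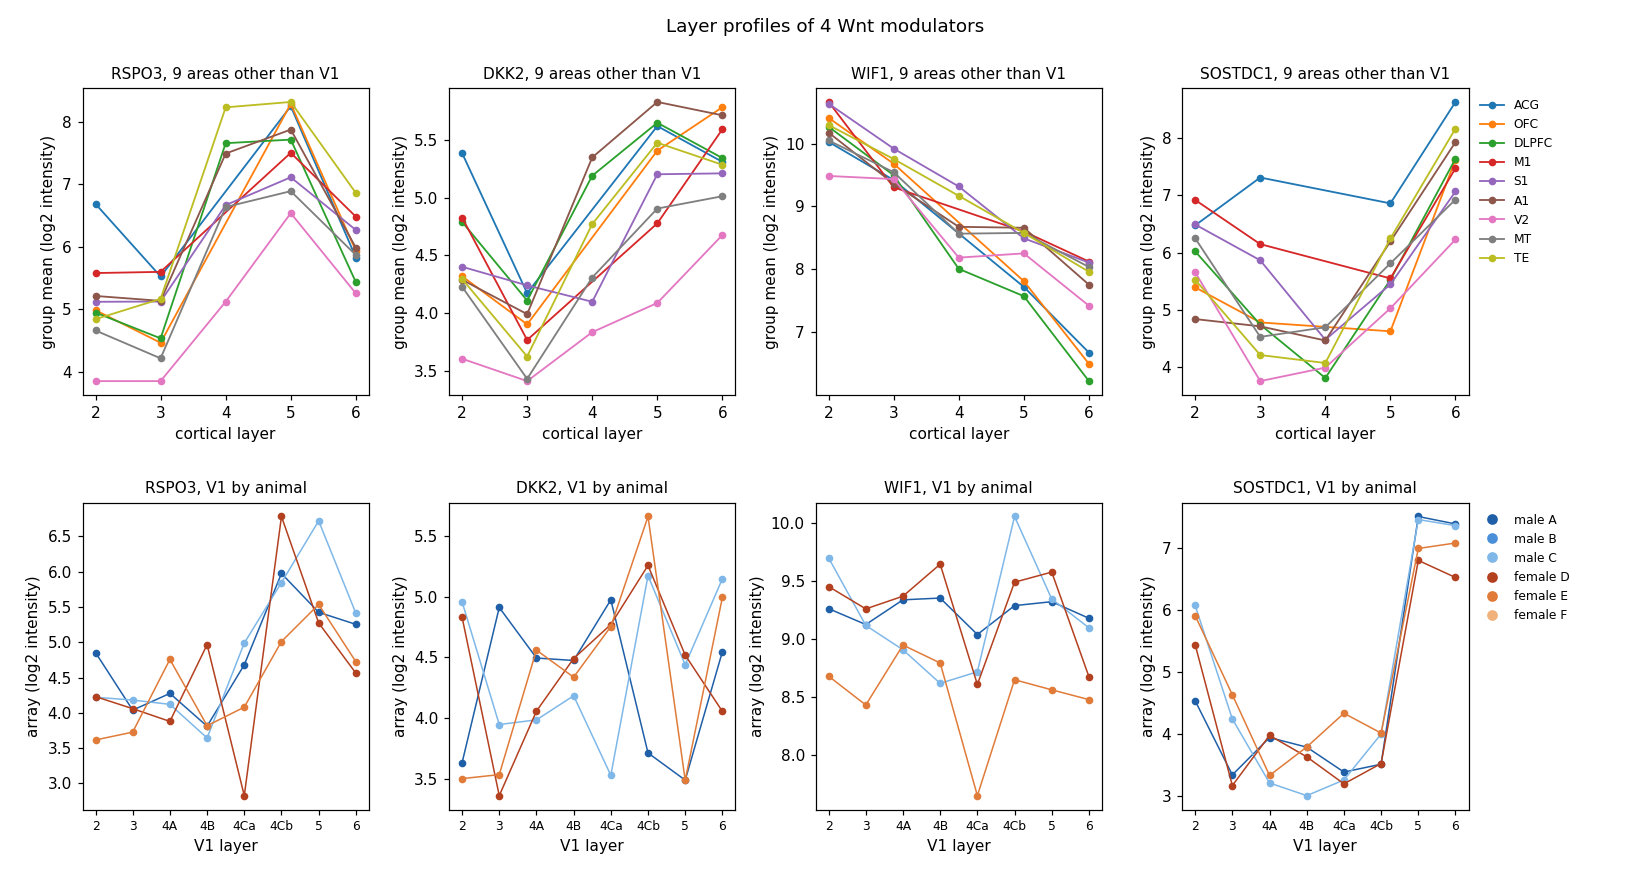
Log2 intensity of RSPO3, DKK2, WIF1 and SOSTDC1 by cortical layer, as group means with 1 line per area in the 9 areas other than V1, and by animal in the 8 layers of V1; the lines of ACG, OFC and M1 run from layer 3 to layer 5 since they have no layer 4 group. WIF1 is lower in layer 6 than in layer 2 in each of the 9 areas, RSPO3 is highest in layer 5, and SOSTDC1 in layer 6 (layers 5 and 6 in V1).

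The members did not share a single pattern. Over the 57 group means, Pearson r was 0.69 between WNT2 and DKK2 and 0.52 between DKK2 and RSPO3. Within the 50 cortical groups, r between DKK2 and RSPO3 was 0.70, while that between WNT2 and DKK2 was 0.34, a lower value than over all 57. DKK2 and WIF1 ran opposite to each other in cortex, with r = -0.58. These groups share animals and hybridisations, and the values describe them only. Among 3 genes most like each member over the 57 group means, WIF1 had SLITRK4 (r = 0.92), TCF4 (0.91) and KBTBD11 (0.89), and SOSTDC1 had OPRK1 (0.82), the kappa opioid receptor, SORCS3 (0.78) and KCNK1 (0.77). RSPO3 had HMGCLL1 (0.81), SMARCD3 (0.79) and PASK (0.77), DKK2 had ENOX2 (0.79), RAB26 (0.79) and CPNE8 (0.79), and WNT2 had ARRB2 (0.69), CNIH2 (0.68) and NSMF (0.67).

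For the other genes of the pathway and for the sexes, a gene was called where limma's moderated F test over the regions had a Benjamini-Hochberg adjusted p under 0.05 and the fitted means spanned at least 1 log2 unit. The members were chosen on the contrasts between regions, so their own calls there are not reported.

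Males and females were compared over the 36 groups that the 4 animals A, C, D and E share, with 1 mean per animal. WIF1 averaged 8.62 and 8.80 in males A and C, against 8.70 and 8.05 in females D and E, and the sexes overlapped. RSPO3 averaged 6.09 and 6.14 in the males and 5.82 and 5.89 in the females, and SOSTDC1 5.29 and 5.14 in the males and 4.87 and 4.87 in the females, with no overlap in either. Male minus female was 0.34 ± 0.23 (SE) for WIF1 with an adjusted p of 0.767 by limma, higher in males in 30 of 36 groups. It was 0.26 ± 0.06 (SE) for RSPO3 with a limma adjusted p of 0.582, and 0.35 ± 0.07 (SE) for SOSTDC1 with a limma adjusted p of 0.562, each higher in males in 23 of 36 groups. None of the 3 passed, and limma called 0 of 10306 genes (0%), with 726 at an unadjusted p under 0.05 (7.04%), from 2 animals of each sex. WNT2 and DKK2 did not enter this fit. Male minus female was 0.06 for WNT2, higher in males in 21 of 36 groups, and -0.24 for DKK2, higher in males in 9 of 36 groups. WIF1 was lowest in female E in 29 of the 36 groups.

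The rest of the pathway was followed through 8 lists of 98 Wnt and BMP genes, 81 of them measured, which were drawn up with earlier results of these arrays known. Their p values and call counts are therefore descriptive, and the shares over all genes given beside them are no test of the lists. Between layers of the granular areas 7 of 56 tested were called (6.61% of 10299 genes were), among them 2 of 8 ligands, 1 of 13 receptors, 0 of 5 antagonists and 0 of 5 target genes. FZD7, a Frizzled receptor, was higher in layer 6 than in the other layers by 1.94 ± 0.13 (SE, adjusted p = 8.34e-10, limma, 4 of 4 animals) and lower in layer 4 by -1.39 ± 0.13. RSPO2, the relative of RSPO3, was lower in layer 6 by -1.91 ± 0.10 (adjusted p = 2.58e-11, limma, 4 of 4 animals), and TRABD2A, a protease that inactivates Wnt proteins, was higher in layer 5 by 1.05 ± 0.13. RSPO2 was also the only list gene of those tested called between deep and upper layers (2.12% of 10313 genes were), at -1.21 ± 0.15 (SE, adjusted p = 2.13e-04, limma, 5 of 5 animals), the opposite sign to RSPO3. WNT3, WNT7A, TCF7L2 and CHRD were called over the 5 layers without passing in any layer alone. With the mean of a gene's probe sets the calls for WNT3, CHRD and TRABD2A were lost. The call for WNT7A was lost without animal A or without animal E, and without the 4 arrays whose markers go against the label.

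Between areas 10 of 56 list genes were called, against 9.19% of 10310 genes. In ACG, where WNT2 and SOSTDC1 are high, FZD7 was higher than in the other areas by 1.71 ± 0.19 (SE, adjusted p = 3.33e-08, limma, 4 of 4 animals) and RSPO2 lower by -1.37 ± 0.17. In V1 FZD7 was lower by -1.60 ± 0.18 (SE) and WNT5A, a ligand of the pathways without beta-catenin, by -1.0 ± 0.13, while RSPO2 was higher by 1.04 ± 0.17. FZD7 was also lower in V2, by -1.49 ± 0.18. WNT7A, SFRP1, LGR4, FZD1, FZD9, GPC4 and NBL1 were called over the areas without passing in any area alone. The calls for WNT5A, SFRP1, LGR4, FZD1 and GPC4 were lost with the mean of a gene's probe sets, and that for SFRP1 also after quantile normalization. Among the 4 areas of the wide control set 1 list gene was called, FZD7.

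In V1, 13 of 55 list genes were called between layers (14.7% of 10218 genes were), 4 of them among 9 ligands. WNT5A was higher in 4Cb by 1.30 ± 0.29 (SE, adjusted p = 4.40e-03, limma, 4 of 4 animals) and lower in layer 3 by -1.46 ± 0.29. With the mean of its probe sets, WNT5A was not called between V1 layers. The mean of RSPO3 in V1 was also highest in 4Cb, but its difference from the next layer was within its spread. RSPO3 did not enter the fit over V1 layers. WNT10B was lower in 4Ca by -1.38 ± 0.17 and in 4Cb by -1.28 ± 0.17, and higher in layers 2 and 6 by 1.09 ± 0.17 and 1.10 ± 0.17. RSPO2 was higher in layer 3 by 1.39 ± 0.17 and lower in layer 6 by -1.81 ± 0.17. WNT5A also had the 1 call for a deep minus upper difference that is unlike in V1 and other areas (0.572% of 10308 genes had one), 1.37 ± 0.14 (SE, adjusted p = 0.0156, limma, 4 of 4 animals), a call lost without animal A, C or E and with the mean of its probe sets.

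The hippocampal fields had the most list calls, 21 of 58, against 19.2% of 10249 genes. Of the 5 tested target genes of beta-catenin signalling (7 were measured), 2 rose in DG relative to the CA fields (5.42% of 10249 genes were called higher there): AXIN2, the negative feedback regulator, by 1.92 ± 0.14 (SE, adjusted p = 3.68e-08, limma, 4 of 4 animals) and TNFRSF19 by 1.15 ± 0.27 (SE, adjusted p = 2.24e-03, limma, 4 of 4 animals). APCDD1 was called over the fields without passing in any field alone, a call lost after quantile normalization and without animal E. NKD1 and SP8 were not called, their fitted means spanning 0.14 and 0.13. The astrocyte list averaged 10.05 in DG (9.88 to 10.22 over arrays). It averaged 9.01 in CA1, 9.24 in CA2 and 9.26 in CA3 (8.81 to 9.50 over the arrays of the 3 fields). Its part in the DG levels of the target genes was not tested. ALDH1L1 of that list had its highest group mean in DG and SLC1A3 its lowest. DG, where WNT2, DKK2 and RSPO3 have their lowest hippocampal level, was also higher in GPC4, a glypican, by 2.99 ± 0.12 and in the receptor ROR1 by 2.68 ± 0.20, and lower in the receptor FZD1 by -1.84 ± 0.19 and in BMP7 by -1.41 ± 0.12. CA3 was lower in WNT4 by -1.73 ± 0.14 (SE, adjusted p = 8.35e-07, limma, 4 of 4 animals) and higher in WNT5A by 1.19 ± 0.14 and in the antagonist SFRP5 by 1.18 ± 0.15. CA1 was lower in FZD7 by -1.60 ± 0.15 and in WNT5A by -1.45 ± 0.14, and higher in FZD1 by 1.35 ± 0.19. In CA2, the peak of WNT2 and DKK2, the list calls were 2 of 58 and both were lower: CHRD, a BMP antagonist, by -1.05 ± 0.11 and GPC4 by -1.03 ± 0.12. Of all 10249 genes 1.29% were called lower in CA2 and 1.51% higher. With the mean of a gene's probe sets the hippocampal calls for AXIN2, TNFRSF19, GPC4, FZD1, BMP7 and CHRD were lost, those of CA2 among them.

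**Figure D5:**
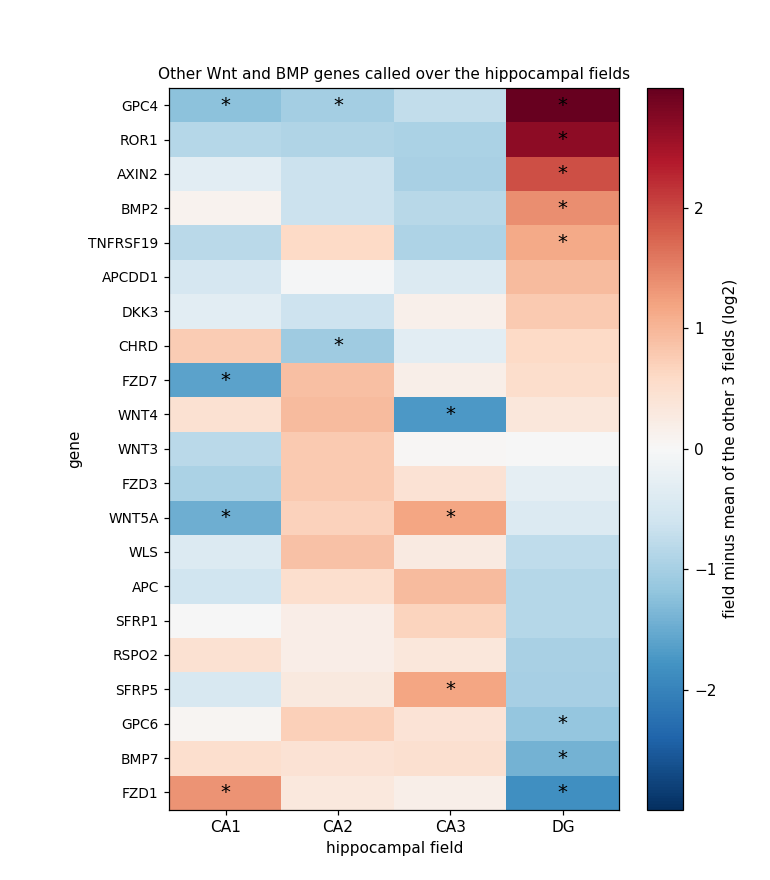
Fitted log2 difference of each hippocampal field from the mean of the other 3 fields for the called genes of the Wnt and BMP lists, 1 row per gene, with the colour scale in log2 units and a star where the field itself passed. GPC4, ROR1 and AXIN2 are the largest positive values, all in DG, and FZD1 in DG is the largest negative value.

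Between structures 17 of 57 list genes were called (18% of 10301 genes were), each structure being set against the mean of the other 2. LGN, where WIF1 is lowest, was higher in TCF7L2 by 3.31 ± 0.09 (SE), in WNT3 by 3.01 ± 0.10 and in WLS, the carrier for Wnt secretion, by 2.05 ± 0.06. LGN was lower in FZD7 by -4.38 ± 0.09 (SE, adjusted p = 2.97e-12, limma, 4 of 4 animals) and in FZD3 by -2.15 ± 0.09. TCF7L2, listed as a Wnt transcription factor, is also the relay neuron marker used to check the dissection. Hippocampus was higher in FZD7 by 4.68 ± 0.09 and lower in TCF7L2 by -2.78 ± 0.09 and WNT3 by -1.85 ± 0.10. Neocortex was higher in RSPO2 by 1.89 ± 0.10, in SFRP1, an antagonist, by 1.47 ± 0.07 and in WNT10B by 1.31 ± 0.07. The calls for FZD3 and SFRP1 were lost with the mean of a gene's probe sets. Between LGN divisions 1 of 56 was called (0.399% of 10276 genes were), WNT16, at 0.93 ± 0.16 (SE) in the parvocellular division, under the limit of 1 for that division alone, and the call was lost without animal A, D or E, without the animal block and with the mean of its probe sets. Between the sexes 0 of 57 list genes were called by limma.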

How the data were processed

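RNA of laser-captured tissue was isolated with the RNeasy Micro kit and amplified in 2 cycles from 5 ng, per the labels' protocols. The deposited values are log10 intensities, made in Matlab with RMA within each of 3 amplification batches and then scaled per probe set on arrays of a common whole-brain pool, per the file header. They were multiplied by 3.32 to give log2 values (log2 had been assumed when the tests were designed). Of 52865 probe sets 24969 carry 1 gene symbol, 361 several and 27535 none in the platform annotation. A gene took its single-symbol probe set with the highest mean, which gave 14133 genes.

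The members and the gene lists were chosen with earlier results of these data known. The genes named from the lists are the called ones, at most 3 of a list in each direction, and the likeness to a member is Pearson r over 57 group means. Layers and areas were averaged per animal, so that an animal counts once per layer or area. limma 3.58.1 in R 4.3.3 was run on all genes whose mean exceeded the median of all probe sets, with Benjamini-Hochberg adjustment and the animal as a block, a gene being called at an adjusted p under 0.05 and a log2 change, or range of fitted means, of at least 1. Animal numbers pair the samples because they name the same animal: residuals of arrays from 1 animal correlated with a median r of 0.174, against -0.0493 between animals. The fits were tested on simulated data. Alternatives were no filter on low genes, the mean of a gene's probe sets, quantile normalization, no animal block, each animal left out, each control set alone and, chosen after seeing the data, leaving out the 4 arrays with discordant layer markers. The 27 control arrays entered no comparison. The number of arrays limits the precision. No promoter, protein or genome sequence was used here.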

Additional observations from a re-analysis of the deposited data

Results flagged for a closer look

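In 16 of 270 groups of 4 arrays, 1 array stood apart by Dixon's test, and chance gives about 1 in 20. For WIF1 each of 4 such arrays came from female E and was low: 7.58 in M1 layer 5 (other animals 8.86 to 9.02), 7.74 in MT layer 5 (8.80 to 8.95), 7.17 in MT layer 6 (8.31 to 8.35) and 8.90 in S1 layer 3 (10.13 to 10.35). Without female E, layer 2 minus layer 6 of WIF1 in the granular areas was 2.50 and deep minus upper outside V1 was -2.24.

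WNT2 had 5 such arrays: male C read 4.77 in DLPFC layer 2 (others 4.45 to 4.47), 3.90 in MT layer 3 (3.18 to 3.23) and 4.29 in S1 layer 3 (3.44 to 3.55), and female E read 3.18 in M1 layer 5 (3.78 to 3.88) and 3.33 in S1 layer 4 (3.66 to 3.72). For DKK2, male A read 3.12 in MT layer 3 (3.51 to 3.57) and male C 3.53 in V1 layer 4Ca (4.75 to 4.97). For RSPO3, female D read 4.97 in V1 layer 4B (3.64 to 3.82).

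SOSTDC1 had 4 such arrays: male A read 4.58 in DG (2.94 to 3.15), female D 3.41 in the parvocellular LGN (3.92 to 4.02), male C 5.82 in OFC layer 5 (4.05 to 4.33) and female E 4.33 in V1 layer 4Ca (3.19 to 3.38).

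A deep minus upper difference that is unlike in V1 and in the other areas was flagged for 2 genes. Only V1 was set against the other areas here. For WIF1, deep minus upper in V1 less that of the other areas was 1.90, which is a description because the gene was chosen with its layer pattern known. For WNT5A it was 1.37 with a limma adjusted p of 0.0156, in 4 of 4 animals. The call was lost without animal A, C or E and with the mean of its probe sets.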

How the results depend on the processing

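The 43 differences of the members had 245 values under the alternatives run, and 238 of these lay within 1 SD of the value given. The sign changed in 1, RSPO3 in V1 layer 5 minus 4Cb, at 0.28 without female D and -0.16 with it, a difference within its spread. The 7 values beyond 1 SD were these. RSPO3 in layers 4 and 5 minus layers 2 and 3 was 2.43 after quantile normalization and 2.66 without the 4 arrays of discordant layer markers. With the mean of both DKK2 probe sets, CA2 minus CA1 was 2.68, CA3 minus CA1 2.02, CA2 minus DG 3.75, layer 5 minus layer 3 0.77 and deep minus upper 0.56. The counts of called list genes gave 68 of 81 values within 1.5 times. With the mean of a gene's probe sets the count was 5 between areas (10 otherwise), 10 between hippocampal fields (21), 0 between LGN divisions (1) and 0 for the V1 difference (1). In the wide control set alone the count between areas was 1. Without the animal block it was 0 between LGN divisions, and the block changed no other count by over 1.5 times. Leaving out 1 animal gave 0 to 2 between LGN divisions, 0 to 1 for the V1 difference (0 without A, C or E) and 20 to 21 between hippocampal fields. Outside CA2 and CA3, most group means of WNT2 (3.33 to 5.89) and DKK2 (3.06 to 5.83) lay near or below the array medians. Readings of WIF1 in LGN and of SOSTDC1 in hippocampus and LGN lay below them. The deposited values give no background.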

Other observations

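The 9 control arrays labelled CA3, from male C, did not read like the CA3 tissue of the comparisons. DKK2 read 3.88 to 5.31 on them, against 9.37 in the CA3 array of male C and 8.01 to 9.54 over 4 animals. RSPO3 read 5.59 to 6.40 on the control arrays, against 8.14 in the CA3 array of male C, and WNT2 3.18 to 4.16, against 5.68. SOSTDC1 read 4.55 to 5.73 on the control arrays, against 3.10. Over all genes these arrays were most like S1 layer 4 (r = 0.991), and CA3 ranked 52 of 57 groups (r = 0.942).

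The 15 arrays of the commercial whole-brain pool averaged 3.75 ± 0.30 for WNT2, 4.19 ± 0.39 for DKK2, 8.70 ± 0.23 for WIF1, 6.36 ± 0.24 for RSPO3 and 4.90 ± 0.36 for SOSTDC1, as SDs over technical replicates of 1 pool.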
